A study of Mus musculus with 192 samples.

Results

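The flight response of the wild-type thymus was examined in 12 of the 192 libraries of the series. They came from 6 FL_WT mice, which had flown, and 6 GC_WT mice, the ground control, and were chosen by the labels for tissue, genotype and condition. All 12 were male WT mice, labelled as strain C57BL/6 (C57BL/6J in the study's methods) and 12 weeks old by the labels, housed individually in the same cage units. The FL_WT mice were launched to the International Space Station, lived there for about a month, returned alive and were dissected some days after splashdown in California. The GC_WT mice were kept in Japan later in the same year under conditions that copied the flight. Launch, landing, transport, the days of recovery, season and place therefore came with flight in every mouse, and their parts in a difference cannot be told apart. Each library came from a different mouse. The series also held thymus libraries of FL_KO and GC_KO mice, which lack the transcription factor Nrf2 throughout the body, and WT spleen libraries of the same 12 mice, and these were used only for comparison.

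The thymus is the organ in which T cells are made. Progenitors from the bone marrow enter at an early stage without CD4 or CD8, receive Notch signals, rearrange the T cell receptor beta chain, divide rapidly and become double positive thymocytes that carry both CD4 and CD8. These cells rearrange the alpha chain, and the few that pass selection on the epithelium of the cortex and the medulla mature into CD4 or CD8 single positive cells and leave. Thymocytes make up most of the organ, while epithelial cells, fibroblasts, vessels, macrophages and dendritic cells form its framework. Because whole organs were sequenced, fewer cells of a type and less RNA per cell cannot be told apart in any result that follows.

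The libraries held 9.43 to 10.6 M counts in GC_WT and 8.61 to 9.55 M in FL_WT (M, mega). The correlation of log2 levels between mice of the same group lay between 0.977 and 0.984, and no pair of libraries was alike within sampling noise. The factors that scale each library (TMM) lay between 0.966 and 1 in GC_WT and between 1.01 and 1.06 in FL_WT. On the first principal component, which held 25.7% of the variance, the GC_WT mice lay between -30.2 and -14.6 and the FL_WT mice between 0.77 and 40.1, with mice FL05 and FL06 farthest from the controls and FL07 nearest. The thymocyte markers Rag1, Rag2, Cd4, Cd8a, Cd8b1, Cd3e, Themis and Ptcra were present in every library. Markers of neighbouring tissues were mixed. The lymph node gene Glycam1 was at 0 in 9 of the 12 mice, the erythrocyte gene Slc4a1 in 7 and the neutrophil gene Retnlg in 6. The haemoglobin genes Hbb-bs (9.56 to 24.3 CPM in GC_WT) and Hba-a1 (4.58 to 9.94 CPM), the follicular gene Cr2 (2.48 to 3.76 CPM) and Pth (12.5 to 40.4 CPM) were present in every library.

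Of 16307 genes tested, 1925 were called higher in FL_WT (11.8%) and 1796 were called lower (11%), at an adjusted p under 0.05. Most changes were modest. The median log2 fold change was 0.443 among the genes called higher and -0.254 among those called lower, and 81 of the former and 18 of the latter changed by more than 2-fold. The levels of the 6 and 6 mice did not overlap for 1406 genes (8.62%). Levels are given here as CPM, the counts of a gene scaled to the same library total with TMM factors, and log2 fold changes compare FL_WT with GC_WT, so that negative values mean lower after flight. The median of all genes tested was 0.021. On the TPM scale, in which 48.7 to 55.5% of each library was held by 5 abundant short RNA genes, this median moved to 0.181 and limma called 3923 genes higher and 237 lower of 10158, so the direction of small changes depended on the scale.

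Genes of cell division were lower almost throughout. Of 66 genes of mitosis and the G2/M phase tested, 63 were lower in FL_WT and 0 were higher, with a median log2 fold change of -0.534. The levels of 40 of the 66 did not overlap between the groups. Prc1, which cross-links the microtubules of the spindle midzone (chr7:80294450-80316259, GRCm38), ranged from 122 to 154 CPM in GC_WT (median 145) and from 64.7 to 102 CPM in FL_WT (median 93) (log2 fold change -0.73, SE 0.09, adjusted p = 8.93e-06). Every FL_WT mouse was below every GC_WT mouse, and FL05 and FL06 were the lowest. Cdk1, the kinase that drives entry into mitosis, ranged from 74.7 to 88.5 CPM in GC_WT (median 80.8) and from 37.8 to 68.5 CPM in FL_WT (median 53.4) (log2 fold change -0.62, SE 0.10, adjusted p = 9.4e-05). Bub3, a spindle checkpoint protein, ranged from 145 to 167 CPM in GC_WT (median 155) and from 101 to 125 CPM in FL_WT (median 116) (log2 fold change -0.44, SE 0.06, adjusted p = 1.23e-05). Pimreg, a regulator of the metaphase to anaphase step and the protein-coding gene with the lowest log2 fold change that passed the rule for named genes, ranged from 21.4 to 27.8 CPM in GC_WT (median 23.9) and from 9.8 to 15.9 CPM in FL_WT (median 12.7) (log2 fold change -0.92, SE 0.12, adjusted p = 1.37e-05). Here too the groups did not overlap. The kinetochore gene Ndc80 (-0.63, adjusted p = 2.03e-05) and Gtse1, which acts in G2 (-0.61, adjusted p = 2.61e-05), were also among the genes with the smallest adjusted p in the list. The proliferation marker genes Mki67 (-0.40, adjusted p = 0.00419) and Top2a (-0.58, adjusted p = 0.000378), chosen after their values were seen, were lower as well. Mxd3, a MYC network member expressed in dividing cells, ranged from 38.1 to 48.9 CPM in GC_WT (median 42.6) and from 16.4 to 31.4 CPM in FL_WT (median 24.6) (log2 fold change -0.82, SE 0.11, adjusted p = 2.86e-05). The summed level of the list was 8575 to 11060 CPM in the GC_WT mice and 5451 to 8354 CPM in the FL_WT mice, where FL05 and FL06 held the lowest sums.

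Promoters of genes that peak in G2 and M are known for the CHR element, to which the DREAM and MMB complexes bind, often near CCAAT boxes. In the RefSeq windows from 250 bases before to 50 bases after the start (GRCm38.p6), the letters TTTGAA or TTCGAA, read on both strands, were found in 42 of 54 mitosis and G2/M genes with a window (77.8%). They were found in 16.8% of all 10466 protein-coding genes tested that had a window and in 16.1% of those called higher. Among those called lower, which include most of the mitosis list, the share was 22.8%, and outside that list it was 20.5%. CCAAT on both strands was found in 72.2% of the mitosis and G2/M promoters and in 42.7% of all. The 100 bases before the most upstream start are shown for 4 mitosis genes of the list, namely those with the smallest adjusted p that hold the CHR letters there, so that the letters can be seen beside genes that were lower. Capitals mark the CHR letters (TTTGAA or, on the other strand, TTCAAA) and the CCAAT letters (or ATTGG). The log2 fold changes of the 4 genes were -0.44 for Bub3, -0.69 for Cdc20, -0.62 for Cdk1 and -0.65 for Ube2c, the last being a ubiquitin carrier of the anaphase promoting complex that Cdc20 activates. A match of letters is a description and not a bound site.
Bub3 promoter, chr7:131560270-131560369 (plus strand): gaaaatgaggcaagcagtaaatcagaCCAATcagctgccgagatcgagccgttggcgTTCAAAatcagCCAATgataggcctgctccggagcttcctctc
Cdc20 promoter, chr4:118437344-118437443 (minus strand): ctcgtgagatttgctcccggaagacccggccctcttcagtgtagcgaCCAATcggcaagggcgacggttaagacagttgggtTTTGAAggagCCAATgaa
Cdk1 promoter, chr10:69352913-69353012 (minus strand): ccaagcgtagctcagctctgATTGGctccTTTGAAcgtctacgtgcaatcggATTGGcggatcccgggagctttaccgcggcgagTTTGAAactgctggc
Ube2c promoter, chr2:164769829-164769928 (plus strand): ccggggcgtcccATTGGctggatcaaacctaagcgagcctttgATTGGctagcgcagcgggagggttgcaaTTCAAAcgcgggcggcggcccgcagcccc

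Replication-dependent histone genes, which are transcribed in S phase and whose mRNAs end in a stem-loop in place of a poly(A) tail, were lower to a similar extent. Of 62 tested, 59 were lower in FL_WT and 0 were higher, with a median log2 fold change of -0.659, and 47 did not overlap between the groups. Hist1h1c, which encodes a linker histone (chr13:23738808-23740367), ranged from 1074 to 1335 CPM in GC_WT (median 1253) and from 492 to 916 CPM in FL_WT (median 759) (log2 fold change -0.76, SE 0.10, adjusted p = 2.42e-05). Hist2h4, a histone H4 gene, ranged from 358 to 450.5 CPM in GC_WT (median 399.7) and from 193 to 306 CPM in FL_WT (median 256) (log2 fold change -0.70, SE 0.09, adjusted p = 1.37e-05). In both genes every FL_WT mouse was below every GC_WT mouse. Hist1h2bk (-0.81), Hist1h3c (-0.80), Hist1h2bn (-0.79), Hist2h2ab (-0.78) and Hist1h2bb (-0.75) were lower with adjusted p values from 2.07e-05 to 8.97e-05. Many of these genes are near-identical copies among which reads are shared out, so the value of a single histone gene is less certain than that of the class. As a class, their mRNA held 2.89% ± 0.171 (SD, n = 6) of all counts in GC_WT, from 2.62 to 3.12%, and 1.94% ± 0.393 (SD, n = 6) in FL_WT, from 1.45 to 2.4% (exact two-sided permutation test, adjusted p = 0.00866, the raw p being the smallest that 924 divisions of the mice allow). The groups did not overlap. Their capture depends on libraries made without poly(A) selection, as was the case for the thymus.

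The core of the stem-loop, spelled TCTTTTNAG on the sense strand, was found in the last 100 bases of the annotated transcripts of 18 of 61 histone genes (29.5%), and in 0.829% of 13389 protein-coding genes tested. Of these 18 genes, 16 were lower. The transcript ends differ between genes in how far the annotation reaches, so the letters may lie outside the window in others. The stem-loops of 3 genes, from GENCODE vM21, are shown because this element distinguishes the class from polyadenylated mRNA. Capitals mark the stem and loop, and the log2 fold change was -0.63 for Hist2h2aa2.
Hist1h2bb transcript end: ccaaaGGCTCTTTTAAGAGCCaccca
Hist2h2aa2 transcript end: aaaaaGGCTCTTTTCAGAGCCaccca
Hist1h3c transcript end: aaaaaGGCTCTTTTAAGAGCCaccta

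Genes of DNA replication and the G1/S step moved less. Of 55 tested, 14 were lower and 0 were higher, with a median of -0.133. In TPM, 1 of 53 was lower and 2 were higher (median 0.095). The count was 9 without mouse FL05, 9 without FL06, 9 without GC03 and 22 without FL10. The members with the smallest adjusted p were the transcription factors E2f2 and E2f7, Dbf4, which activates the kinase that fires replication origins (-0.31, adjusted p = 0.00205), and Rrm2, a subunit of ribonucleotide reductase (-0.53, adjusted p = 0.00434). E2f2 ranged from 269.9 to 315 CPM in GC_WT (median 284) and from 125 to 229 CPM in FL_WT (median 187) (log2 fold change -0.68, SE 0.10, adjusted p = 6.56e-05). E2f7, a repressor of the E2F programme, was lower by a like amount (-0.67, adjusted p = 0.000975). The E2F letters TTTCGCGC or TTTCCCGC were found in 30.4% of 46 promoters of this list, in 3.7% of the mitosis and G2/M promoters and in 2.98% of all. Among genes that restrain division, 7 of 20 tested were lower and 0 were higher (median -0.08), while on the TPM scale 3 of 16 were lower and 3 were higher (median 0.104). Cdkn2d, an inhibitor of the CDK4 and CDK6 kinases, ranged from 57.4 to 66.5 CPM in GC_WT (median 61.5) and from 31.3 to 44.1 CPM in FL_WT (median 37.8) (log2 fold change -0.70, SE 0.07, adjusted p = 7.81e-07), and Cdkn2c, which inhibits the same kinases, ranged from 83.1 to 104 CPM in GC_WT (median 89.7) and from 42 to 67.6 CPM in FL_WT (median 55.2) (log2 fold change -0.75, SE 0.10, adjusted p = 2.08e-05). Cdkn1b, an inhibitor of CDK2, ranged from 249.9 to 286 CPM in GC_WT (median 266) and from 197 to 216 CPM in FL_WT (median 208) (log2 fold change -0.37, SE 0.04, adjusted p = 4.31e-06). None of these 3 genes overlapped between the groups. Ccng2, a cyclin of resting cells, was lower as well (-0.48, adjusted p = 8.93e-06). Among 3 growth genes chosen after their values were seen, the cyclin gene Ccnd3 was lower (-0.45, adjusted p = 0.0044), while the cyclin gene Ccnd2 (0.42, adjusted p = 0.00112) and Myc (0.39, adjusted p = 0.00479) were higher.

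**Figure D1:**
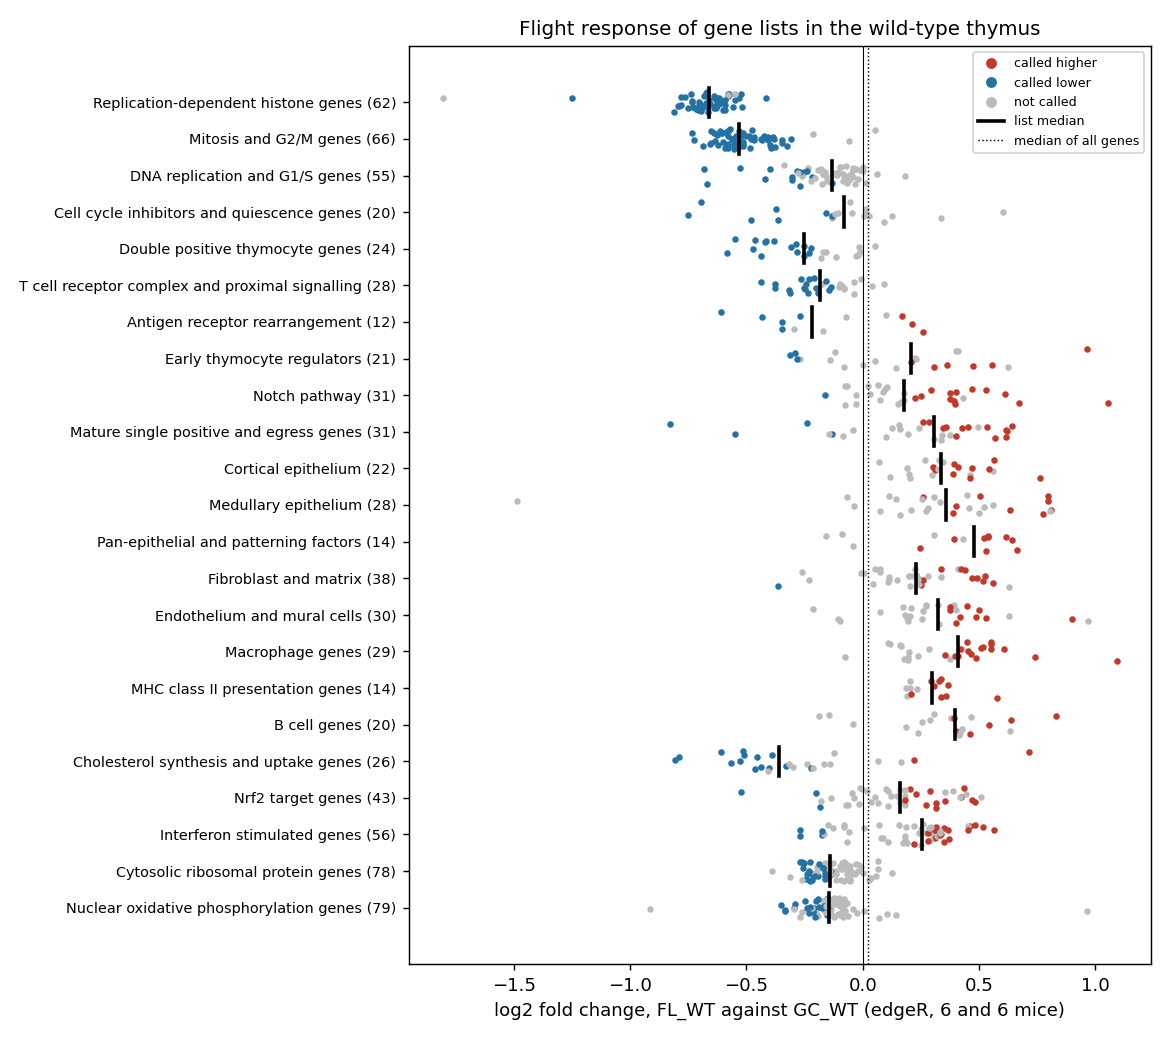
Log2 fold change of FL_WT against GC_WT (horizontal axis, edgeR, 6 and 6 mice) for the members of 23 gene lists (rows, number tested in brackets); each point is a gene, red if called higher, blue if called lower and grey if not called, the black bar is the median of the list and the dotted line the median of all genes (0.021). The histone genes (median -0.659) and the mitosis and G2/M genes (-0.534) lie almost wholly to the left and the epithelial and macrophage lists to the right. On the TPM scale the medians of the lists for G1/S genes, cell cycle inhibitors, receptor complex, rearrangement, ribosomal proteins and oxidative phosphorylation were above 0.

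Genes that mark double positive thymocytes were lower. Of 24 tested, 15 were lower and 0 were higher (median -0.251), and 10 did not overlap between the groups. Cd8b1, the beta chain of the CD8 coreceptor (chr6:71322788-71337494), ranged from 832 to 976 CPM in GC_WT (median 919) and from 505 to 682 CPM in FL_WT (median 619.6) (log2 fold change -0.58, SE 0.06, adjusted p = 3.78e-06). Cd8a, its alpha chain, ranged from 1108 to 1306 CPM in GC_WT (median 1228) and from 661 to 1021 CPM in FL_WT (median 803) (log2 fold change -0.55, SE 0.08, adjusted p = 3.68e-05). Cd4, the other coreceptor, ranged from 837 to 935 CPM in GC_WT (median 875) and from 556 to 693 CPM in FL_WT (median 646) (log2 fold change -0.46, SE 0.06, adjusted p = 1.37e-05). None of the 3 overlapped between the groups. Ccr9, the receptor for the cortical chemokine CCL25 (-0.41, adjusted p = 1.2e-05), Rmnd5a (-0.47, adjusted p = 9.18e-06) and Themis, which tunes receptor signals during selection (-0.28, adjusted p = 0.000147, but 0.022 on the TPM scale), were lower. On the TPM scale, 3 of 23 tested were called lower, 3 were called higher, and the median was -0.022, which was 0.203 below that of all genes on that scale. Ly6d, a surface protein of lymphoid progenitors and thymocytes, ranged from 165 to 206 CPM in GC_WT (median 179) and from 69.5 to 124 CPM in FL_WT (median 102) (log2 fold change -0.90, SE 0.10, adjusted p = 3.9e-06), and Endou, an endoribonuclease gene, ranged from 268 to 360.3 CPM in GC_WT (median 312) and from 129 to 229 CPM in FL_WT (median 184) (log2 fold change -0.76, SE 0.12, adjusted p = 6.86e-05). Both are among the 12 protein-coding genes with the lowest log2 fold changes by the rule for named genes.

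The machinery of the antigen receptor followed the same direction for most members. Of 28 genes of the T cell receptor complex and its proximal signalling, 17 were lower and 0 were higher (median -0.183). They included Lck, the kinase that acts with the coreceptors, which ranged from 869 to 982 CPM in GC_WT (median 937) and from 610.4 to 793 CPM in FL_WT (median 714) (log2 fold change -0.38, SE 0.05, adjusted p = 1.37e-05), and Cd3d (-0.44, adjusted p = 2.07e-05), Cd247 (-0.31, adjusted p = 2.07e-05) and the adaptor Sla2 (-0.32, adjusted p = 3.78e-06). Cd3e, which is expressed throughout the lineage, gave -0.08 (adjusted p = 0.363). Among 12 genes of antigen receptor rearrangement, 5 were lower and 3 were higher (median -0.22). Rag1, a subunit of the recombinase (chr2:101638282-101649501), ranged from 5521 to 6364 CPM in GC_WT (median 6137) and from 4205 to 5235 CPM in FL_WT (median 4735) (log2 fold change -0.35, SE 0.06, adjusted p = 0.000283), and its partner Rag2 was lower by -0.43 (adjusted p = 0.00047). Dntt, the transferase that adds nucleotides at the joints, ranged from 1337 to 1422 CPM in GC_WT (median 1377) and from 728 to 1062 CPM in FL_WT (median 908) (log2 fold change -0.61, SE 0.08, adjusted p = 2.05e-05). Xrcc6, a subunit of Ku in end joining, was lower (-0.27, adjusted p = 0.00113). The 3 higher members were Xrcc5, the other Ku subunit (0.26, adjusted p = 0.0134), and the DNA damage response genes Atm (0.17, adjusted p = 0.00394) and Trp53bp1 (0.21, adjusted p = 0.00715). On the TPM scale 1 gene of the receptor complex was lower and 3 were higher, and 1 rearrangement gene was lower and 4 were higher. The medians of the lists on that scale were 0.048 and 0.003, which were 0.133 and 0.178 below that of all genes on that scale.

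T cell receptor transcripts differed by chain. Trbc1, a constant region of the beta chain (chr6:41538218-41539881), ranged from 209.5 to 232 CPM in GC_WT (median 213) and from 110.1 to 165 CPM in FL_WT (median 143) (log2 fold change -0.64, SE 0.09, adjusted p = 2.03e-05), and Trbc2, the other one, ranged from 1310 to 1384 CPM in GC_WT (median 1330) and from 798 to 1047 CPM in FL_WT (median 977) (log2 fold change -0.50, SE 0.06, adjusted p = 9.18e-06). Every FL_WT mouse was below every GC_WT mouse for both. Tcrg-C2, a constant region of the gamma chain, moved the other way and ranged from 26.2 to 35.4 CPM in GC_WT (median 31.9) and from 38.2 to 58.5 CPM in FL_WT (median 41.7) (log2 fold change 0.48, SE 0.09, adjusted p = 0.000656), again without overlap, and Tcrg-C4 was higher by 0.45 (adjusted p = 0.00317). Trdc, the constant region of the delta chain, was lower (-0.45, adjusted p = 0.00581), and Trac, that of the alpha chain, gave -0.13 (adjusted p = 0.201). Of 7 constant regions, 3 were higher and 3 were lower. Of 95 variable and joining segments tested, 23 were lower and 8 were higher, while on the TPM scale 8 of 79 were lower and 26 were higher (median 0.138). The segments with the smallest adjusted p were all of the beta locus, Trbv4 (-0.49), Trbv13-1 (-0.49), Trbv15 (-0.46) and Trbv12-1 (-0.52), with adjusted p values from 5.52e-06 to 3.68e-05. The 8 that were higher became 5 without FL03, 1 without FL05, 4 without FL06, 3 without FL08, and 4 without each of GC05, GC06 and GC08. Segments of one family share sequence, so the split of reads between them is uncertain. Together all receptor segments held 0.235% ± 0.00515 of counts (SD, n = 6) in GC_WT and 0.193% ± 0.0116 (SD, n = 6) in FL_WT (exact two-sided permutation test, adjusted p = 0.00866).

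Genes that act in the early stages, though not all are confined to them, showed both directions. Il2ra, the CD25 chain of the interleukin 2 receptor and a marker of early thymocytes and regulatory T cells (chr2:11642807-11693193), ranged from 22.5 to 27.6 CPM in GC_WT (median 26.7) and from 39.7 to 70.0 CPM in FL_WT (median 47.8) (log2 fold change 0.97, SE 0.10, adjusted p = 2.38e-06). Every FL_WT mouse was above every GC_WT mouse. Ptcra, the partner of the beta chain at the early checkpoint, gave 0.18 (adjusted p = 0.098). Of 21 early thymocyte regulators tested, 6 were higher and 3 were lower (median 0.206). The 6 became 3 without FL06, and the 3 became 5 without FL03 and 6 without FL07 or GC08. The transcription factors Tcf7 (-0.29, adjusted p = 0.000252) and Tcf12 (-0.31, adjusted p = 0.000293) were lower, while Lef1, a relative of Tcf7, was higher (0.21, adjusted p = 0.000516). Shisa2, among the 12 genes with the highest log2 fold changes by the rule for named genes, ranged from 33.5 to 52.8 CPM in GC_WT (median 43.5) and from 63.7 to 117 CPM in FL_WT (median 80.3) (log2 fold change 0.96, SE 0.15, adjusted p = 8.35e-05).

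The Notch pathway, which commits progenitors to the T lineage, was higher in 13 of 31 genes tested and lower in 1 (median 0.179), and 8 did not overlap between the groups. Dtx1, a Notch target and modulator and the protein-coding gene with the highest log2 fold change by the rule for named genes (chr5:120680202-120711927), ranged from 11.9 to 22.1 CPM in GC_WT (median 16.9) and from 23.4 to 50.0 CPM in FL_WT (median 33.4) (log2 fold change 1.06, SE 0.17, adjusted p = 9e-05). The receptor Notch3 ranged from 71.7 to 80.7 CPM in GC_WT (median 74.5) and from 93.5 to 107 CPM in FL_WT (median 98.4) (log2 fold change 0.40, SE 0.06, adjusted p = 3.55e-05), and Notch1, the receptor that acts in T lineage commitment, ranged from 319 to 353 CPM in GC_WT (median 332) and from 366 to 420.3 CPM in FL_WT (median 401) (log2 fold change 0.25, SE 0.05, adjusted p = 0.000638). The ligand Jag1, which is expressed by stromal cells, was higher by 0.53 (adjusted p = 0.00029). None of the 4 genes overlapped between the groups. The adhesion gene Cdh4 (0.81), the transport adaptor gene Hap1 (0.87) and the interferon-inducible Ifi213 (0.82) were further members of the 12 highest, with adjusted p values of 7.09e-05, 3.59e-05 and 0.00267. Snhg11, a host gene of small nucleolar RNAs annotated as protein-coding, was another of the 12 highest and ranged from 26.9 to 31.3 CPM in GC_WT (median 29.1) and from 48.4 to 71.2 CPM in FL_WT (median 62) (log2 fold change 1.02, SE 0.12, adjusted p = 6.45e-06).

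**Figure D2:**
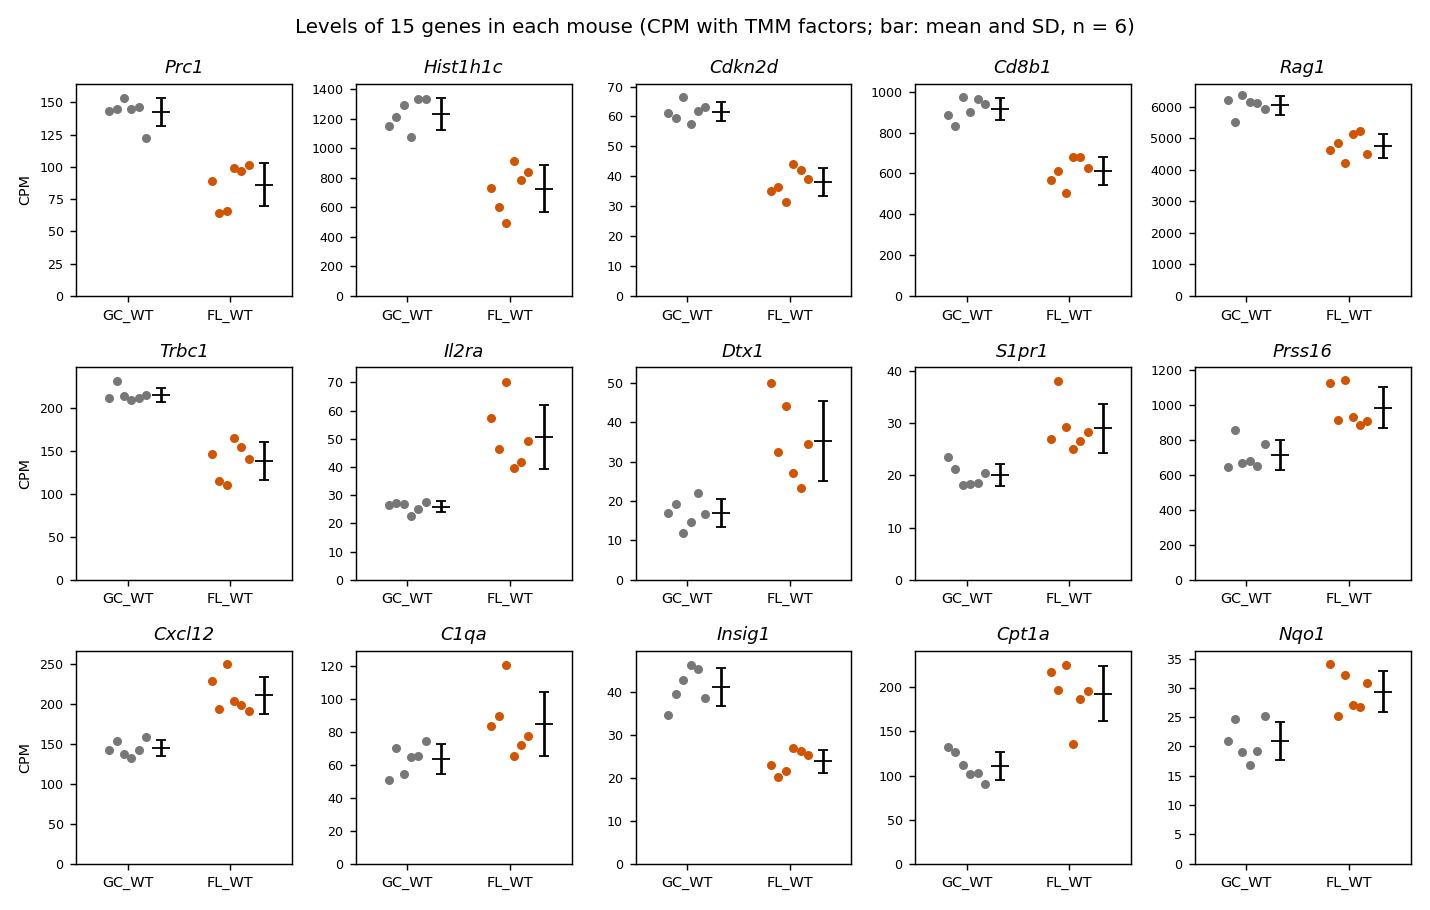
Level of 15 genes in each mouse (vertical axes, CPM with TMM factors, each starting at 0), GC_WT in grey and FL_WT in orange, with the mean and SD of 6 mice beside the points. Prc1, Cd8b1, Trbc1 and Insig1 are lower and Il2ra, Dtx1 and Cxcl12 higher in every FL_WT mouse than in every GC_WT mouse, while C1qa overlaps.

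Genes of mature single positive cells and of exit from the thymus were higher for 13 of 31 tested and lower for 4 (median 0.305). The 13 became 8 without FL05. S1pr1, the receptor that leads mature cells out of the organ, ranged from 18.1 to 23.6 CPM in GC_WT (median 19.5) and from 25 to 38.1 CPM in FL_WT (median 27.7) (log2 fold change 0.53, SE 0.12, adjusted p = 0.00195). Il7r, the receptor of the survival cytokine interleukin 7, ranged from 36.6 to 59 CPM in GC_WT (median 41) and from 48.6 to 80.7 CPM in FL_WT (median 67.8) (log2 fold change 0.62, SE 0.15, adjusted p = 0.00471), and the groups overlapped. Zbtb7b, which directs the CD4 lineage, ranged from 28.2 to 41.4 CPM in GC_WT (median 31.6) and from 42.9 to 62.6 CPM in FL_WT (median 49.7) (log2 fold change 0.61, SE 0.11, adjusted p = 0.000411), and Izumo1r was higher by 0.64 (adjusted p = 0.00171). The chemokine receptor Ccr7 (0.37, adjusted p = 0.112) and the factor Klf2, which drives S1pr1 (0.34, adjusted p = 0.0608), did not pass the test. Among the members that were lower, Lgals1, a galectin, ranged from 83.1 to 116 CPM in GC_WT (median 94.2) and from 37.5 to 70.8 CPM in FL_WT (median 55.1) (log2 fold change -0.83, SE 0.12, adjusted p = 3.68e-05) and Ifngr1, a chain of the interferon gamma receptor, gave -0.55 (adjusted p = 2.08e-05). The summed level of the list was 1774 to 1938 CPM in GC_WT and 1766 to 1959 CPM in FL_WT.

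Among genes that respond to positive selection, 6 of 23 were higher and 2 were lower, and the 6 became 3 without FL06 or without GC06. They included the GTPases Gimap4 (0.53, adjusted p = 0.000754) and Gimap3 (0.47, adjusted p = 0.00651). Of 14 regulatory T cell genes, 4 were higher, 2 without FL05, and 0 were lower. Beside Il2ra these were Gpr83 (0.73, adjusted p = 0.00623), the TGF-beta anchor Lrrc32 (0.60, adjusted p = 0.0185, which was 0.0578 without FL05) and Capg. Foxp3, the factor that defines the lineage, gave -0.08 (adjusted p = 0.869), and Tnfrsf18 gave -0.10 (adjusted p = 0.451). Of 24 genes of gamma delta and innate-like T cells, 9 were higher and 1 was lower (median 0.302), among them Rora (0.38, adjusted p = 0.0003) and Maf (0.39, adjusted p = 0.00218), which are both transcription factors of such cells. The member that was lower was Trdc, the delta chain gene that defines gamma delta cells.

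Genes of the epithelial framework were higher. Of 22 genes of the cortical epithelium, 10 were higher and 0 were lower (median 0.338). Prss16, the thymus-specific serine protease, ranged from 646 to 858 CPM in GC_WT (median 676) and from 883 to 1142 CPM in FL_WT (median 920.5) (log2 fold change 0.46, SE 0.08, adjusted p = 0.00023), without overlap. Cxcl12, a chemokine made by cortical epithelium and other stroma (chr6:117168535-117181367), ranged from 132 to 158 CPM in GC_WT (median 142) and from 191 to 249 CPM in FL_WT (median 201) (log2 fold change 0.54, SE 0.07, adjusted p = 1.62e-05), and all FL_WT mice were above all GC_WT mice. Psmb11, the thymoproteasome subunit, ranged from 84.3 to 129.8 CPM in GC_WT (median 99.8) and from 86.1 to 166 CPM in FL_WT (median 126) and did not pass the test (log2 fold change 0.30, SE 0.12, adjusted p = 0.0721). The endocytic receptor Ly75 (0.41, adjusted p = 0.000779), the growth factor Kitl (0.56, adjusted p = 0.000101) and Igfbp5 (0.76, adjusted p = 0.000147) were higher, while Foxn1, the master regulator of thymic epithelium (0.46, adjusted p = 0.166), and Ccl25 (0.20, adjusted p = 0.157) did not pass.

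Of 14 general epithelial and patterning genes, 9 were higher and 0 were lower (median 0.477), and 7 did not overlap. Fgfr2, the receptor through which fibroblast growth factors sustain the epithelium, ranged from 27.1 to 36.2 CPM in GC_WT (median 29.6) and from 40.6 to 49.5 CPM in FL_WT (median 43.3) (log2 fold change 0.52, SE 0.08, adjusted p = 3.81e-05). Pax1 (0.53, adjusted p = 0.000485) and Grhl2 (0.54, adjusted p = 0.00069) were higher as well. In the medullary list, 9 of 28 were higher and 0 were lower (median 0.359). Aire, which lets medullary cells express tissue antigens, ranged from 10 to 15.5 CPM in GC_WT (median 12.5) and from 13.5 to 20.4 CPM in FL_WT (median 16.1) (log2 fold change 0.39, SE 0.13, adjusted p = 0.0384), and was called in 4 of the 12 fits without 1 mouse. Epcam (0.40, adjusted p = 0.000857), the stem cell factor Trp63 (0.51, adjusted p = 0.00433) and the chemokine gene Ccl19 (0.63, adjusted p = 0.00452) were higher, while the keratin genes Krt5 (0.11, adjusted p = 0.635) and Krt14 (-0.04, adjusted p = 0.851), Fezf2 (0.45, adjusted p = 0.0586) and Ccl21a (0.21, adjusted p = 0.339) did not pass.

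Trpm5, a taste channel of the tuft-like epithelial cells of the medulla, ranged from 2.64 to 4.86 CPM in GC_WT (median 3.54) and from 5.07 to 10.9 CPM in FL_WT (median 5.54) (log2 fold change 0.81, SE 0.19, adjusted p = 0.00385), and all FL_WT mice were above all GC_WT mice. A list of tuft cell genes, drawn up after these values were seen, held 15 tested genes, of which 6 were higher and 0 were lower (median 0.5). Sh2d7, an adaptor of these cells, ranged from 0.879 to 2.38 CPM in GC_WT (median 1.63) and from 2.85 to 6.68 CPM in FL_WT (median 3.27) (log2 fold change 1.21, SE 0.23, adjusted p = 0.000588). The regulator of G protein signalling Rgs13 (1.33, adjusted p = 0.00616) and the actin-binding Avil (0.77, adjusted p = 0.00494) were also higher. Mouse FL06 was the highest for Trpm5, Sh2d7 and Rgs13, and 4 genes of the list were called without it.

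Mesenchymal and vascular genes moved in the same direction, with fewer calls. In the fibroblast and matrix list, 10 of 38 were higher and 1 was lower (median 0.23), and the 10 became 6 without FL05, where 3 were lower, and 4 without FL06. Dcn, a matrix proteoglycan, ranged from 68.8 to 98.2 CPM in GC_WT (median 71.6) and from 91.2 to 141 CPM in FL_WT (median 103) (log2 fold change 0.52, SE 0.12, adjusted p = 0.00285), and the growth factor receptors Pdgfra (0.56, adjusted p = 0.0142) and Pdgfrb (0.49, adjusted p = 0.00119) were higher. Col1a1, a collagen chain, gave -0.23 (adjusted p = 0.423). The member that was lower was Thy1 (-0.37, adjusted p = 1.28e-05), which thymocytes also express. In the list of endothelium and mural cells, 9 of 30 were higher and 0 were lower (median 0.326), among them the receptors Flt1 (0.49, adjusted p = 0.00096) and Tie1 (0.50, adjusted p = 0.00653) and the junction protein Cdh5 (0.38, adjusted p = 0.00935). Pecam1, which is expressed beyond endothelium, gave -0.10 (adjusted p = 0.232).

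Macrophage genes were higher for 16 of 29 tested and lower for 0 (median 0.409). Mrc1, the mannose receptor, ranged from 39.2 to 48.2 CPM in GC_WT (median 40.1) and from 49.6 to 81.8 CPM in FL_WT (median 56.1) (log2 fold change 0.55, SE 0.10, adjusted p = 0.000353), without overlap. Csf1r, the receptor on which macrophages depend, ranged from 34.8 to 48.1 CPM in GC_WT (median 44.9) and from 45.1 to 87.7 CPM in FL_WT (median 55.9) (log2 fold change 0.45, SE 0.12, adjusted p = 0.0097). C1qa, a complement chain made by thymic macrophages, ranged from 51 to 74.4 CPM in GC_WT (median 65.5) and from 65.5 to 121 CPM in FL_WT (median 80.7) (log2 fold change 0.42, SE 0.12, adjusted p = 0.0152), and its adjusted p was 0.0763 without FL06. The receptors that take up dying cells, Mertk (0.49, adjusted p = 0.000592) and Axl (0.45, adjusted p = 0.000658), were higher, and Adgre1, which encodes F4/80, gave 0.18 (adjusted p = 0.27). The summed level of the list was 1800 to 2256 CPM in GC_WT and 2128 to 3382 CPM in FL_WT, highest in FL06.

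Of 14 genes of MHC class II presentation, 9 were higher and 0 were lower (median 0.3). The 9 became 5 without FL05, 4 without FL06 and 5 without GC06. Cd74, the invariant chain, ranged from 704 to 927 CPM in GC_WT (median 816) and from 860.3 to 1239 CPM in FL_WT (median 1038) (log2 fold change 0.31, SE 0.07, adjusted p = 0.00414), and H2-Ab1 (0.29, adjusted p = 0.0057), the transactivator Ciita (0.33, adjusted p = 0.00264) and the costimulator Cd86 (0.58, adjusted p = 0.000449) were higher. In B cell genes, 6 of 20 were higher and 0 were lower (median 0.397). Cd79a, a chain of the B cell receptor complex, ranged from 2.48 to 3.91 CPM in GC_WT (median 3.04) and from 3.96 to 5.9 CPM in FL_WT (median 5.01) (log2 fold change 0.64, SE 0.17, adjusted p = 0.00914), and Blnk (0.54, adjusted p = 0.000382), Cr2 (0.83, adjusted p = 0.000522) and Ebf1 (0.46, adjusted p = 0.00803) were higher. Dendritic cell genes gave 4 higher (16.7%) and 3 lower (12.5%) of 24, near the 11.8% and 11% of all genes. The 4 became 1 or 2 without any of 9 of the 12 mice and 9 without GC05. Siglech, a marker of plasmacytoid dendritic cells, was lower (-0.66, adjusted p = 0.0109), and Xcr1, a marker of cross-presenting cells, was higher (0.31, adjusted p = 0.0334) but was called in 2 of the 12 fits without 1 mouse. Of 12 plasma cell genes 0 passed in either direction.

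Lipid genes formed a further group. In the list of cholesterol synthesis and uptake, 14 of 26 were lower and 2 were higher (median -0.361). By TPM, 1 of 24 was lower and 4 were higher, with a median of -0.166, which was 0.347 below that of all genes on that scale. Insig1, which retains the sterol sensor in the endoplasmic reticulum (chr5:28071363-28078662), ranged from 34.8 to 46.3 CPM in GC_WT (median 41.2) and from 20.3 to 26.9 CPM in FL_WT (median 24.2) (log2 fold change -0.79, SE 0.10, adjusted p = 9.46e-06). Srebf2, the transcription factor that drives the pathway, was lower too (-0.33, adjusted p = 0.000425). Abca1, which exports cholesterol, ranged from 144 to 187 CPM in GC_WT (median 166) and from 214 to 365 CPM in FL_WT (median 261) (log2 fold change 0.72, SE 0.09, adjusted p = 1.23e-05). Insig1 and Abca1 did not overlap between the groups, and Abca1 moved against the synthesis genes.

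Genes of fatty acid use were higher. Cpt1a, the carnitine transferase that admits fatty acids to the mitochondrion, ranged from 90.7 to 133 CPM in GC_WT (median 107) and from 136 to 225 CPM in FL_WT (median 196) (log2 fold change 0.80, SE 0.11, adjusted p = 3.46e-05), and Angptl4, a secreted inhibitor of lipoprotein lipase, ranged from 6.87 to 9.29 CPM in GC_WT (median 8.24) and from 10.6 to 18.2 CPM in FL_WT (median 15.4) (log2 fold change 0.90, SE 0.15, adjusted p = 0.000156). Both were without overlap and among the 12 highest by the rule for named genes. In a list of fatty acid catabolism and PPAR targets drawn up after these values were seen, 15 of 29 were higher and 2 were lower (median 0.203). They included the thioesterase Acot1 (1.5, adjusted p = 4.62e-05) and Vldlr, a lipoprotein receptor (0.75, adjusted p = 0.00111), and the kinase gene Pdk4, which turns mitochondria away from glucose (0.91, adjusted p = 0.0152). Apod, a lipocalin that binds lipids and a further member of the 12 highest, ranged from 8.1 to 10.5 CPM in GC_WT (median 9.22) and from 13.8 to 30.4 CPM in FL_WT (median 17.1) (log2 fold change 1.03, SE 0.15, adjusted p = 3.4e-05), and Apoc1 (0.93, adjusted p = 0.000399) and Pla2g7 (0.82, adjusted p = 0.00251) completed the lipid genes among the 12. Of 20 adipocyte genes, 5 were higher, 3 without FL05, and 0 were lower. The 5 included Fabp4 (0.55, adjusted p = 0.0113), Acsl1 (0.54, adjusted p = 0.0152), Lpl (0.42, adjusted p = 0.0155) and Plin4 (1.10, adjusted p = 0.0195), while the defining marker Adipoq gave 0.68 (adjusted p = 0.187). The summed level of the adipocyte list was 285 to 460 CPM in GC_WT and 345 to 512 CPM in FL_WT, and its part in the higher lipid genes was not tested.

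The core machinery of the cell changed little per gene. Of 78 ribosomal protein genes, 24 were lower and 0 were higher (median -0.139, 14 lower without GC05), and of 79 nuclear genes of oxidative phosphorylation, 22 were lower and 0 were higher (median -0.144, 14 lower without FL05 and 12 without GC05). Fau, which encodes a ribosomal protein fused to a ubiquitin-like domain (-0.26, adjusted p = 0.000765), and the respiratory chain genes Cox7a2l (-0.33, adjusted p = 3.38e-05) and Uqcrh (-0.35, adjusted p = 0.000204) were among the lower members. Of 43 proteasome subunits, 11 were lower and 0 were higher (median -0.109), and the 11 became 6 without FL05, 5 without GC05 and 7 without GC06 or GC07. On the TPM scale 0 genes of these 3 lists were lower, and 8 ribosomal, 4 oxidative phosphorylation and 9 proteasome genes were higher. Their medians were then 0.087, 0.088 and 0.114, above 0 but below the 0.181 of all genes on that scale. Of 34 splicing genes, 7 were lower, 4 without FL05, GC03 or GC06, and 0 were higher, while on the TPM scale 0 were lower and 9 were higher. Glycolysis genes gave 3 lower, 1 without FL05, FL06, GC05 or GC07, and 1 higher of 21. Among 12 protein genes of the mitochondrial genome, 2 were higher and 0 were lower, mt-Nd1 (0.30, adjusted p = 0.0178) and mt-Atp8 (0.34, adjusted p = 0.0255), and 0 were called without FL06.

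The study asked whether flight engages the Nrf2 pathway, a defence against oxidants and electrophiles. Nqo1, the quinone reductase that serves as its standard target (chr8:107388225-107403206), ranged from 16.9 to 25.1 CPM in GC_WT (median 20.04) and from 25.1 to 34 CPM in FL_WT (median 29) (log2 fold change 0.48, SE 0.11, adjusted p = 0.00241). The lowest FL_WT mouse was just above the highest GC_WT mouse, and Nqo1 was called in each of the 12 fits without 1 mouse. Hmox1, haem oxygenase 1 (chr8:75093621-75100589), ranged from 6.7 to 9.45 CPM in GC_WT (median 8.71) and from 9.07 to 15.5 CPM in FL_WT (median 10.6) (log2 fold change 0.47, SE 0.14, adjusted p = 0.0138), the groups overlapped, and it was not called without FL05 (adjusted p = 0.0621) or without FL06, the mice with the highest levels. Nfe2l2, which encodes Nrf2 itself, ranged from 55.5 to 64.5 CPM in GC_WT (median 60.8) and from 61.8 to 69.2 CPM in FL_WT (median 65.3) (log2 fold change 0.11, SE 0.06, adjusted p = 0.206). Of 43 Nrf2 target genes tested, 12 were higher (27.9%, against 11.8% of all genes) and 3 were lower (6.98%, against 11%), with a median of 0.159. The levels of 4 of the 43 did not overlap, a share near the 8.62% of all genes. The 12 became 7 without FL03, FL05, GC06 or GC07 and 5 without FL06. Fth1, a ferritin chain, ranged from 214 to 256 CPM in GC_WT (median 236) and from 269 to 351 CPM in FL_WT (median 276) (log2 fold change 0.29, SE 0.06, adjusted p = 0.00126). Aox1, an aldehyde oxidase, was higher by 0.44 (adjusted p = 0.00276). Slc7a11, the cystine importer and a target of the stress factor ATF4 as well, ranged from 93.9 to 149.8 CPM in GC_WT (median 139) and from 74 to 114 CPM in FL_WT (median 90.8) and was lower (log2 fold change -0.53, SE 0.11, adjusted p = 0.000887). The core letters of the antioxidant response element were TGACNNNGC, read on both strands. They were found in 34.3% of 35 promoters of the list and in 16.7% of all. Among genes called higher the share was 16.9%, and among those called lower 17.7%.

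Other stress lists showed no common direction. Of all genes tested, 11.8% were higher and 11% were lower. Glucocorticoid response genes lay near these shares, with 13.8% in each direction. Of the apoptosis regulators, 10.3% were higher and 17.2% were lower. Of 31 p53 target genes, 9 were lower and 3 were higher, and the 3 became 1 without FL05, FL06 or GC08. Trp53inp1, which acts with p53 in cell death, ranged from 1298 to 1662 CPM in GC_WT (median 1412) and from 992 to 1117 CPM in FL_WT (median 1022) (log2 fold change -0.47, SE 0.06, adjusted p = 9.38e-06), and Fas, the death receptor, ranged from 41.1 to 46.7 CPM in GC_WT (median 45.2) and from 28.2 to 34.8 CPM in FL_WT (median 32) (log2 fold change -0.49, SE 0.06, adjusted p = 8.93e-06). Both were lower without overlap, while the lipid transfer protein gene Pltp was higher (0.53, adjusted p = 6.21e-05). Of 29 apoptosis regulators, 5 were lower, 3 without GC06, and 3 were higher, 1 without any of FL03, FL05, FL06, GC06 and GC07 and 5 without FL07 or GC05. Bcl2l1, which keeps double positive cells alive, was lower (-0.44, adjusted p = 0.00068), and so was Apaf1, the scaffold of the apoptosome (-0.24, adjusted p = 0.00158). Bcl2, a survival protein of early and mature thymocytes, was higher (0.35, adjusted p = 0.00479). Glucocorticoid response genes gave 4 higher and 4 lower of 29, with Cxcr4 (-0.38, adjusted p = 0.000411) and Sesn1 (-0.31, adjusted p = 0.000477) lower and Tgm2 (0.69, adjusted p = 0.000627) and Il7r higher. Heat shock genes gave 1 higher and 1 lower of 33. Immediate early genes gave 4 higher and 6 lower of 30, the latter including Csrnp1 (-0.39, adjusted p = 3.55e-05) and Btg2 (-0.37, adjusted p = 0.000132). Genes of the unfolded protein response gave 6 higher and 2 lower of 31. As TPM, these lists turned to more higher calls, as did the genes as a whole, with 3923 of 10158 higher and 237 lower. The p53 targets then gave 9 higher and 3 lower of 24, and the apoptosis regulators 9 and 1 of 23. The glucocorticoid genes gave 5 and 0 of 23, and the heat shock genes 8 and 0 of 32. The immediate early genes gave 12 and 0 of 22, and the unfolded protein genes 18 and 1 of 27.

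Interferon stimulated genes were higher for 19 of 56 (33.9%) and lower for 4 (median 0.254). The 19 became 10 without FL06, and the 4 became 2 without GC07. Isg20, an exonuclease, ranged from 37.9 to 48.9 CPM in GC_WT (median 42.9) and from 52.5 to 74.5 CPM in FL_WT (median 57.8) (log2 fold change 0.48, SE 0.08, adjusted p = 0.00016), without overlap. Oasl2, an antiviral gene, was higher (0.37, adjusted p = 0.00424), and the peptide transporter gene Tap2 was lower (-0.27, adjusted p = 0.000513). Of 33 chemokine and chemokine receptor genes, 6 were higher, 3 without FL05 or FL06, and 2 were lower. Circadian clock genes gave 7 higher and 3 lower of 19, and the 7 became 4 without FL05 or GC07 and 3 without FL06. Arntl, a core activator of the clock, was lower (-0.29, adjusted p = 0.00055), and Per3 was higher (0.61, adjusted p = 0.00551). The hours of dissection were not in the labels, and their part in the clock genes was not tested.

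Genes of neighbouring tissues were counted beside these results. Erythroid genes gave 1 higher and 0 lower of 8 tested, with summed levels of 111 to 151 CPM in GC_WT and 117 to 145 CPM in FL_WT, and the haemoglobin genes Hba-a1 (-0.45, adjusted p = 0.354) and Hbb-bs (-0.45, adjusted p = 0.238) did not pass. Of 13 neutrophil and monocyte genes 1 was higher. Parathyroid and thyroid genes gave 0 calls of 4, with sums of 45 to 128 CPM in GC_WT and 71.1 to 304 CPM in FL_WT, and Pth, parathyroid hormone, gave 1.08 (adjusted p = 0.202). Skeletal muscle genes gave 2 higher and 1 lower of 5, and lymph node genes 2 higher of 5. Genes of hepatocytes, listed after their values were seen, were higher for 10 of 24 tested and lower for 0, with sums of 69 to 174 CPM in GC_WT and 146 to 307 CPM in FL_WT. This count rested on single mice. It was 2 without FL03 or FL05, 18 without GC03, 5 without GC07 and 3 without any of GC05, GC06, GC08 and GC10. Alb, serum albumin, ranged from 0.322 to 28.9 CPM in GC_WT (median 3.72) and from 10.9 to 49.9 CPM in FL_WT (median 16.1) (log2 fold change 1.74, SE 0.75, adjusted p = 0.0953), and GC03 stood apart from the other controls. Apob (1.46, adjusted p = 0.0144, which was 0.0521 without FL03) and Trf, transferrin (0.70, adjusted p = 0.00103), were higher. The part of other tissue in these values was not tested.

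Beyond mRNA, the make-up of the libraries differed. Small nuclear and nucleolar RNA held 0.636% ± 0.0725 of counts in GC_WT and 0.471% ± 0.11 in FL_WT (SD, n = 6, exact two-sided permutation test, adjusted p = 0.0216, but 0.0877 as a share of TPM). The 7SK RNA, which holds the elongation factor P-TEFb inactive, held 6.48% ± 0.561 and 5.72% ± 0.139 (SD, n = 6, exact permutation test, adjusted p = 0.00866), and was not past the threshold as a share of TPM (adjusted p = 0.435). Mitochondrial mRNA rose from 0.753% ± 0.0854 to 0.859% ± 0.0344 (SD, n = 6, exact permutation test, adjusted p = 0.0297), and long intergenic RNA from 2.96% ± 0.227 to 3.48% ± 0.262 (SD, n = 6, exact permutation test, adjusted p = 0.013). Ribosomal protein mRNA held 2.26% ± 0.127 and 2.22% ± 0.137 (SD, n = 6, exact permutation test, adjusted p = 0.588). Mitochondrial rRNA did not pass either (adjusted p = 0.645). Shares of one library are tied to each other, since a class that shrinks leaves room for the rest.

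**Figure D3:**
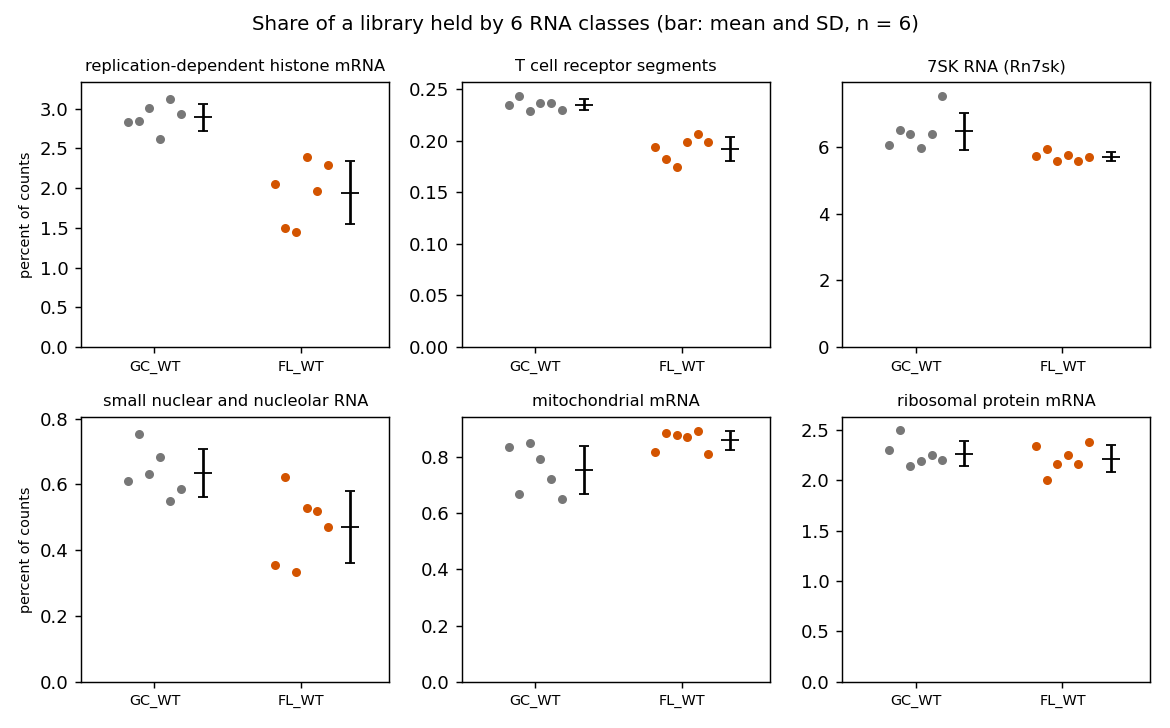
Share of a library's counts (percent, axes starting at 0) held by 6 RNA classes, with a point for each mouse (GC_WT grey, FL_WT orange) and the mean and SD of 6 mice beside them. Histone mRNA and T cell receptor segments are lower in all FL_WT mice than in all GC_WT mice, while ribosomal protein mRNA overlaps.

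The response also followed the genomic span of the gene, from its first to its last annotated base. Among 9756 protein-coding genes with a log2 CPM above 3, the median log2 fold change rose from -0.083 in the class with the shortest span (median 5.29 kb) to 0.054 in that with the longest (median 120 kb). In the shortest class 149 genes were higher and 438 lower, and in the longest 531 were higher and 202 lower. Spearman's rho of log2 fold change and span was 0.249 across these genes, which are not independent replicates and which share libraries and scaling. Intron reads, which libraries made without poly(A) selection hold, were not measured here, and their part in this trend was not tested.

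**Figure D4:**
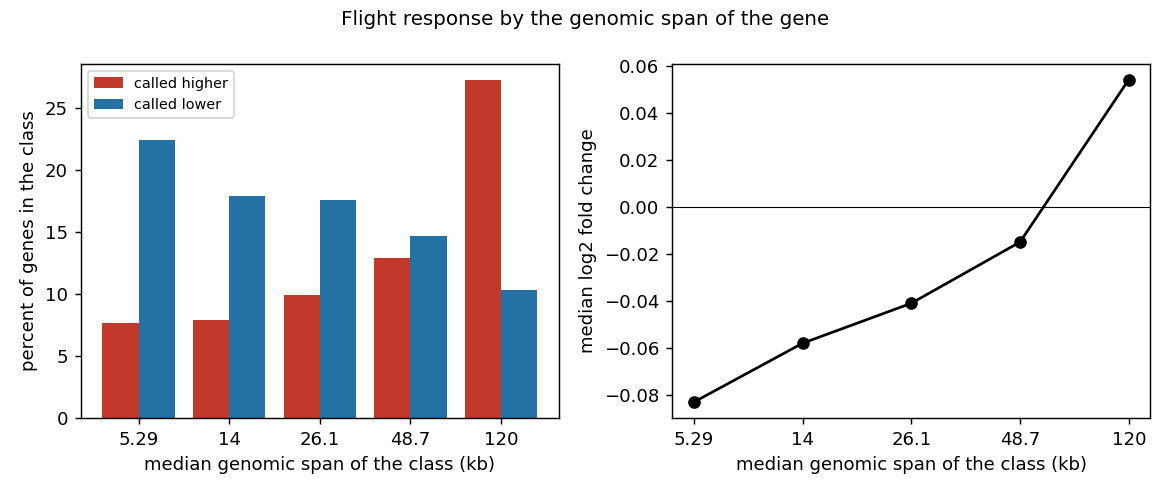
Protein-coding genes in 5 classes of genomic span (horizontal axes, median span of the class in kb). The left panel gives the percent of genes called higher (red) and lower (blue), and the right panel the median log2 fold change of FL_WT against GC_WT, which rises from -0.083 to 0.054.

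The Nrf2-KO thymus was compared next, for the same lists. Mouse FL04, which had fallen ill, was left out. In FL_KO (5 mice) against GC_KO (6 mice), 3150 of the 16307 genes were higher (19.3%) and 3083 lower (18.9%). The mitosis and G2/M list gave 63 lower in KO as in WT, with medians of -0.623 and -0.534. The histone list gave 60 and 59 lower (medians -0.813 and -0.659), and the double positive list 18 and 15 lower (medians -0.451 and -0.251). Larger gaps were seen in interferon stimulated genes, with 46 higher in KO and 19 in WT (medians 0.737 and 0.254). In medullary epithelium 25 and 9 were higher (medians 0.862 and 0.359). Nrf2 target genes gave 11 higher and 5 lower in KO, against 12 and 3 in WT (medians 0.107 and 0.159). The test of the difference itself, WT response minus KO response, called 0 of 16307 genes (0%) with edgeR. At an unadjusted p under 0.05 it gave 1342, the smallest adjusted p was 0.273, and DESeq2 called 8. For Nqo1 the log2 fold change was 0.48 in WT and 0.31 in KO, for Hmox1 0.47 and 0.18, for Il2ra 0.97 and 0.96, and for Insig1 -0.79 and -0.93. None of these differences passed the test.

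In the spleen of the same 12 WT mice, 186 of 16170 genes were higher after flight (1.15%) and 180 were lower (1.11%). The test of thymus response minus spleen response, with each mouse as a block, called 1615 of 17410 genes (9.28%), of which 891 were more positive in thymus and 724 more negative. It called 1036 without mouse GC08, 1049 without FL05 and 991 without FL06. Il2ra gave 0.97 in thymus and -0.16 in spleen (difference 1.10, adjusted p = 0.000286), Cd8b1 gave -0.58 and -0.06 (difference -0.53, adjusted p = 0.00269), and Insig1 gave -0.79 and -0.06 (difference -0.74, adjusted p = 0.000837). Of the mitosis and G2/M genes, 14 of 66 were more negative in thymus, and the median of the list was -0.182 in spleen, where 1 gene was lower. Of the double positive genes, 8 of 24 were more negative, and of the mature single positive and egress genes, 11 of 31 were more positive and 3 more negative in thymus. Angptl4 was higher in both organs (0.90 and 1.11, difference -0.21, adjusted p = 0.28). The spleen libraries were made from poly(A) RNA, so 12 of the 62 histone genes could be tested there, and library kind and organ cannot be told apart in levels.

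**Figure D5:**
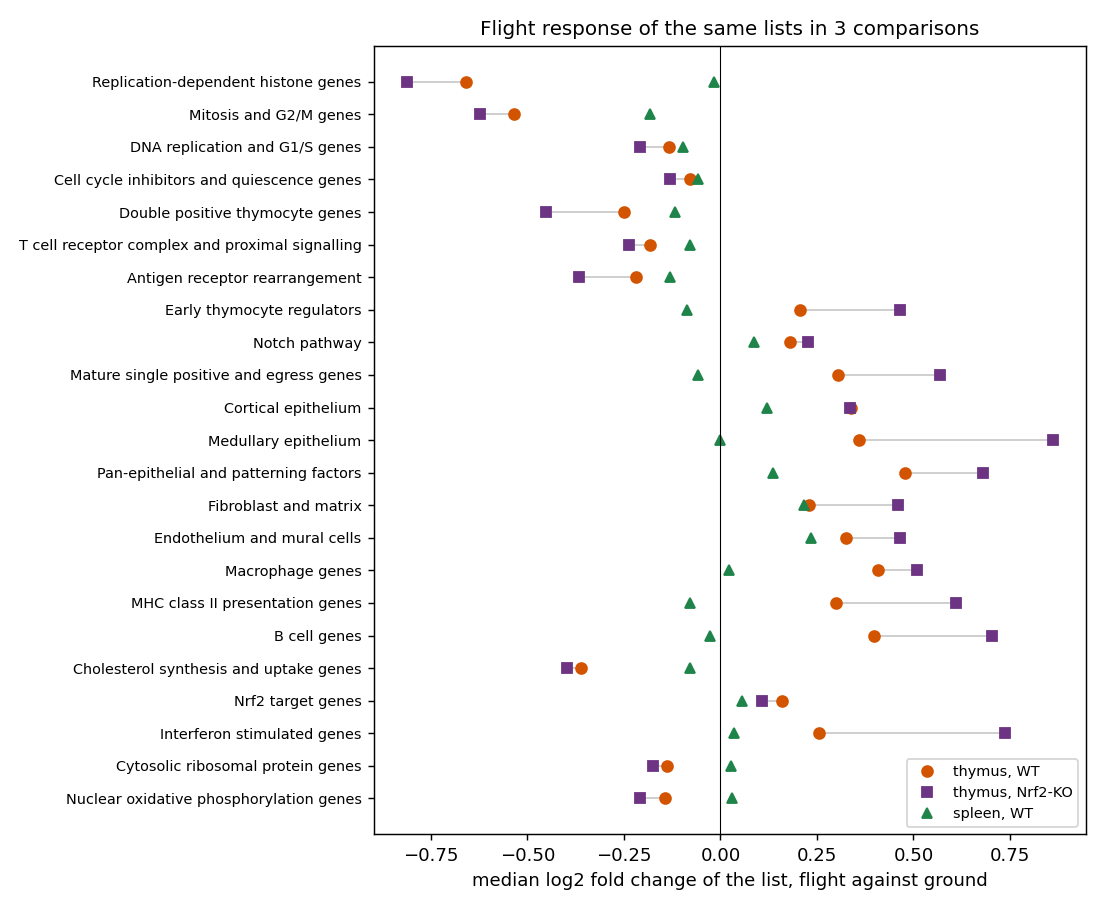
Median log2 fold change, flight against ground (horizontal axis), of 23 gene lists (rows) in WT thymus (orange circles), Nrf2-KO thymus (purple squares, 5 flight and 6 ground mice) and WT spleen (green triangles), a grey line joining the thymus values. The histone list lies at -0.659, -0.813 and -0.017 and the interferon list at 0.254, 0.737 and 0.036, and on the TPM scale several small negative medians of WT thymus were above 0.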

How the data were processed

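RNA was taken from whole thymus, depleted of ribosomal RNA and made into strand-specific libraries. Spleen libraries were made from poly(A) RNA. Per the paper's methods and the submitters' processing notes, the authors aligned reads with STAR 2.6.1 to mm10 and quantified genes with RSEM 1.3.1. The deposited values used here were the expected counts per gene that RSEM estimated for the authors, and the TPM values the authors obtained from them, which are scaled for gene length and library. The strand setting of the counting is not given in the sources used here.

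Expected counts were rounded and tested with edgeR 4.0.16 (quasi-likelihood test, TMM factors, filterByExpr, R 4.3.3) in a single fit of the 4 thymus groups without mouse FL04, which was ill, as in the study. P-values were adjusted by Benjamini-Hochberg over all genes tested, and 0.05 was the limit below which a gene was called. Every adjusted p without another test or fit named is from this fit. Levels are CPM with TMM factors. The difference of responses between WT and KO was an interaction term of the thymus fit, and that between thymus and spleen was fitted with each mouse as a block. Shares of RNA classes were compared by exact two-sided permutation tests, adjusted over 12 classes. Counting error is larger at low levels, and libraries held 8.61 to 10.6 M counts. No pseudocount was used in the main fit. The scripts were tested on simulated data.

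The alternatives tried were limma 3.58.1 on TPM values (log2, pseudocount 1, mean TPM of at least 5), DESeq2 1.42.0, RLE factors, TMM factors from a restricted set of protein-coding genes, no filter on low counts, only FL_WT and GC_WT in the fit, FL04 included, a block for the replicate number and each mouse left out in turn.

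Gene symbols came from the deposited table, and coordinates from GENCODE vM21 (GRCm38), which matched 99.9% of 54752 genes. Named are Nfe2l2, Nqo1 and Hmox1. Further genes named are the 12 highest and 12 lowest protein-coding genes called, with no overlap in TPM and a mean TPM of at least 5 in the higher group. Up to 4 members of each list with the smallest adjusted p, and the defining markers of cell types, are also named. Any other gene named, among them Cdk1, Cdc20, Ube2c, Hist2h2aa2, Capg, Trdc, Trac, Foxp3, Tnfrsf18, Xrcc5, Atm, Trp53bp1, Alb and the tuft, hepatocyte and fatty acid genes, was chosen after its values were seen. The members and lists were chosen with earlier results of these data known. The values of some genes that these rules would name are not reported here.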

Additional observations from a re-analysis of the deposited data

Results flagged for a closer look

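In 18 of 252 groups of 6 mice, 1 mouse stood apart from the others by Dixon's criterion on the gap to the nearest mouse, which chance alone gives in about 1 of 20 groups. Mouse FL06 accounted for 6 of them. It was the highest FL_WT mouse for Trpm5 (11 CPM, with the others at 5.07 to 6.04), Sh2d7 (6.68, others 2.85 to 3.45), Tcrg-C2 (58.5, others 38.2 to 43.4) and Fth1 (351, others 269 to 279). It was also the highest for the summed CPM of the pan-epithelial list (724, others 627 to 663) and of the plasma cell genes (730, others 395 to 473). Mouse FL05 was the highest for S1pr1 (38.1 CPM, others 25 to 29.2), and FL08 for the summed parathyroid and thyroid genes (304 CPM, others 71.1 to 133).

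Among the controls, GC10 was the lowest for Prc1 (122 CPM, others 143 to 154) and the highest for the 7SK share (7.55% of counts, others 5.98 to 6.5%). GC05 was the deepest library (10.6 M counts, others 9.43 to 9.83). It was the highest for Trbc1 (232 CPM, others 209 to 215) and for the summed proteasome (3650 CPM, others 3270 to 3400) and glycolysis genes (2930 CPM, others 2500 to 2620), and the lowest for Slc7a11 (93.9 CPM, others 138 to 150). GC03 was the highest for Alb (28.9 CPM, others 0.322 to 7.83), GC08 was the highest for Dcn (98.2 CPM, others 68.8 to 72.6) and the lowest for the share of signal recognition particle RNA (4.32%, others 5.34 to 5.82%).

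The flight response differed between thymus and spleen of the same WT mice for 1615 genes by the interaction test.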

How the results depend on the processing

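The scale mattered most. With limma on log2(TPM + 1), 3923 of 10158 genes were called higher and 237 lower (94.3% of calls higher, against 51.7% with edgeR), the median of all genes was 0.181, and 3 double positive genes were called lower. On that scale Themis (0.022), Rps9 (0.009), Psmd8 (0.025) and Srsf4 (0.017) changed sign without passing the test. The cause was not tested. DESeq2 called 1769 higher and 2007 lower (46.8% higher), and 8 genes for the difference between WT and KO. RLE factors, the restricted TMM factors, no filter, fewer groups and FL04 included kept both counts within 1.5 times. As a share of TPM, the log2 differences of 7SK RNA (-0.037) and of small nuclear and nucleolar RNA (-0.331) did not pass. With the farthest mouse left out, that of signal recognition particle RNA (-0.276, adjusted p = 0.0104, exact permutation test) did. Without 1 mouse in turn, genes called higher numbered from 1141 (without FL06) to 1926 (without FL07), genes called lower from 1477 to 2268, and genes that differed between thymus and spleen from 991 to 1822, the last chosen after seeing the data. They were 1036 without GC08 and 1049 without FL05. A replicate block gave 1803 higher and 1720 lower, and with FL_WT and GC_WT alone 1308 and 1241. Mice with the same number did not deviate together (correlations from -0.083 to 0.089, and 0 mice best matched by their own number), so the numbers gave no pairing. Across alternatives, 1508 values of single genes were counted as unchanged, 16 gained a call and 50 lost it. Among genes called in the main fit, 5 values changed sign, among them the 4 named here. A change of sign in a gene not called in the main fit was counted with the 1508. Genes with few counts were limited by depth.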

Other observations

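Immunoglobulin segments, counted with the other RNA classes, held 0.145% ± 0.0481 of counts in GC_WT and 0.196% ± 0.0493 in FL_WT (SD, n = 6), which did not pass the exact two-sided permutation test (adjusted p = 0.113). The RNA of RNase P and RNase MRP held 1.37% ± 0.0769 and 1.3% ± 0.0814 (SD, n = 6, exact permutation test, adjusted p = 0.153).

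Hepatocyte genes, listed after their values were seen, had a median log2 fold change of 1.563 in the thymus of WT mice, 0.378 in that of KO mice, where 1 gene was higher, and -1.224 in the spleen of WT mice, where 3 of 27 were lower. The difference between thymus and spleen passed the test for 23 of 27 of them, against 1615 of 17410 genes in all (9.28%). Because the list was chosen on its thymus values, this count is not independent of that choice. It was not repeated without single mice. Erythroid genes were lower in spleen for 13 of 19 tested, with a median of -2.405, while 8 of 19 differed between the organs.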
